A study of Mus musculus with 6 samples.

Results

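RNA of immune cells from bronchoalveolar lavage fluid (BALF), the rinse of the mouse airways and alveoli, was compared between animals that lack both CIS and STAT6 and wild-type animals. Bulk RNA sequencing gave 2 libraries labelled as the double knockout of Cis and Stat6, called Cis_Stat6_DKO here, and 2 libraries labelled WT. These are 4 of the 6 libraries of the study, chosen by their titles and genotype labels alone, and they were fitted on their own. The remaining 2 libraries lack CIS only (Cis_KO) and are set beside the results as values. All cells were untreated and carry the same batch date, and no label gives the strain, age, sex or the design of the knockout alleles, or says that the replicates came from separate animals. The p-values therefore measure the spread between these samples, which may be partly technical.

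CIS, encoded by Cish, is an SH2-domain protein of the SOCS family, which cytokines induce through STAT5 and which in turn damps cytokine receptor signalling. STAT6 is the transcription factor that interleukin 4 and interleukin 13 activate through JAK kinases, and in macrophages it drives the genes of the alternative activation state. Most cells in the lavage of an untreated lung are alveolar macrophages, which need GM-CSF, a cytokine that signals through STAT5. In bulk RNA, fewer cells of a type and less RNA per cell cannot be told apart.

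The counts summed to 65575418 and 52151440 in the Cis_Stat6_DKO libraries and to 55129216 and 65937118 in the WT libraries, and 19757 to 20431 genes had at least 1 count. Genes that collect ribosomal RNA took 1.65% and 9.56% of the counts in Cis_Stat6_DKO and 6.78% and 3.48% in WT, so this share differed as much within the genotypes as between them. Across genes, which cannot count as independent replicates, the Spearman correlation of expression was 0.978 between the Cis_Stat6_DKO libraries and 0.984 between the WT libraries, against 0.964 to 0.975 between genotypes. The median absolute log2 difference per gene was 0.247 between the Cis_Stat6_DKO libraries and 0.183 between the WT libraries, against 0.207 to 0.318 between genotypes, and by this measure Cis_Stat6_DKO replicate 1 lay closer to WT replicate 2 (0.207) than to its own replicate. Alveolar macrophage genes dominated the marker lists in every library, with a summed level of 46257 and 56614 CPM in Cis_Stat6_DKO and 24764 and 35329 CPM in WT. Much of this sum and of its difference came from Chil3, which was not called, and Ccl6, both given below. CPM denotes a gene's count as a share of the library, scaled to the same total in all libraries with TMM factors. Siglecf, the sialic acid receptor that marks resident alveolar macrophages, stood at 204 and 143 CPM in the Cis_Stat6_DKO libraries, against 186 and 214 CPM in the WT libraries.

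The reads of both targeted genes were largely gone. Stat6, annotated as ENSMUSG00000002147 on mm10 chromosome 10 between 127642986 and 127660957, had 32.1 and 26 CPM in the Cis_Stat6_DKO libraries, against 237 and 231 CPM in the WT libraries. Its log2 fold change, Cis_Stat6_DKO over WT as everywhere below, was -3.01 ± 0.15 (± standard error; edgeR quasi-likelihood test, Benjamini-Hochberg adjusted p = 0.00084). Cish, annotated as ENSMUSG00000032578 on chromosome 9 between 107296026 and 107302784, had 1.75 and 5.13 CPM in the Cis_Stat6_DKO libraries, against 47.1 and 57.2 CPM in the WT libraries (log2 fold change -3.95 ± 0.47, adjusted p = 0.0167). No library of one genotype overlapped the other for either gene, and both kept some reads in the double knockout.

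The start of Cish, the gene that reports STAT5 activity in many cell types, is shown because it holds the short palindrome to which STAT5 binds. In the RefSeq promoter of Cish (GRCm38.p6, plus strand, chr9:107296409-107296688, from 250 bases before to 30 bases after the start site), capitals mark the matches to the STAT5 form TTCNNNGAA, which reads the same on both strands. Neither match is a measured binding site, and the choice of this gene was made after its values were seen.
Cish: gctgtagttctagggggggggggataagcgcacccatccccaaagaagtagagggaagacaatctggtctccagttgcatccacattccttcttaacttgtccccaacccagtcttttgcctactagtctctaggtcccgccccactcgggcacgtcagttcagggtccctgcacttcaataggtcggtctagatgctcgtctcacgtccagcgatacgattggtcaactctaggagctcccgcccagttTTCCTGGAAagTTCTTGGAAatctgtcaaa
This window held 2 such matches, the first at the start site and the other beginning 11 bases after it, and no match to the STAT6 form, in which 4 bases of any kind separate TTC from GAA.

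Of 16182 genes tested, 277 passed the adjusted p of 0.05 and are described as called (1.71%), 181 of them higher in Cis_Stat6_DKO (1.12%) and 96 lower (0.593%). The median log2 fold change was 1.92 among the genes called higher and -1.90 among those called lower, against -0.00 over all tested genes. A change of at least 8-fold was fitted for 53 of the genes called higher and 27 of those called lower. For 20 called genes 1 genotype had no count at all, 14 of them being silent in WT and 6 in Cis_Stat6_DKO. In all 277 the libraries of the genotypes did not overlap. Of all tested genes, 23.8% were without overlap higher and 23.7% without overlap lower. Predicted genes, clones and pseudogenes made up 46 of the calls (16.6%), against 21.8% of the tested genes.

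The direction of the 277 did not change with the libraries or the test. That was largely fixed in advance, because the libraries of the genotypes did not overlap in any of them. The number of calls did depend on the libraries and the test. It was 1201 without Cis_Stat6_DKO replicate 1, of which 577 were higher and 624 lower, so that the excess of higher calls was lost there. It was 468 without Cis_Stat6_DKO replicate 2, 122 without WT replicate 1 and 163 without WT replicate 2, 959 with DESeq2, and 22 when the Cis_KO libraries shared the fit. Of 53 called genes that the naming rule selects, 24 missed the threshold without WT replicate 1 or 2, at adjusted p of 0.0501 to 0.316, none did so without a Cis_Stat6_DKO library, and 40 did so in the fit of 6 libraries. With limma-voom 6 of the 53 missed it, and with DESeq2 1 did, H2-M2. A fit without 1 library takes its spread from the pair of the other genotype alone, and the WT pair was the closer one. The contrast between leaving out a WT and a Cis_Stat6_DKO library therefore cannot be read as stability of the calls.

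**Figure D1:**
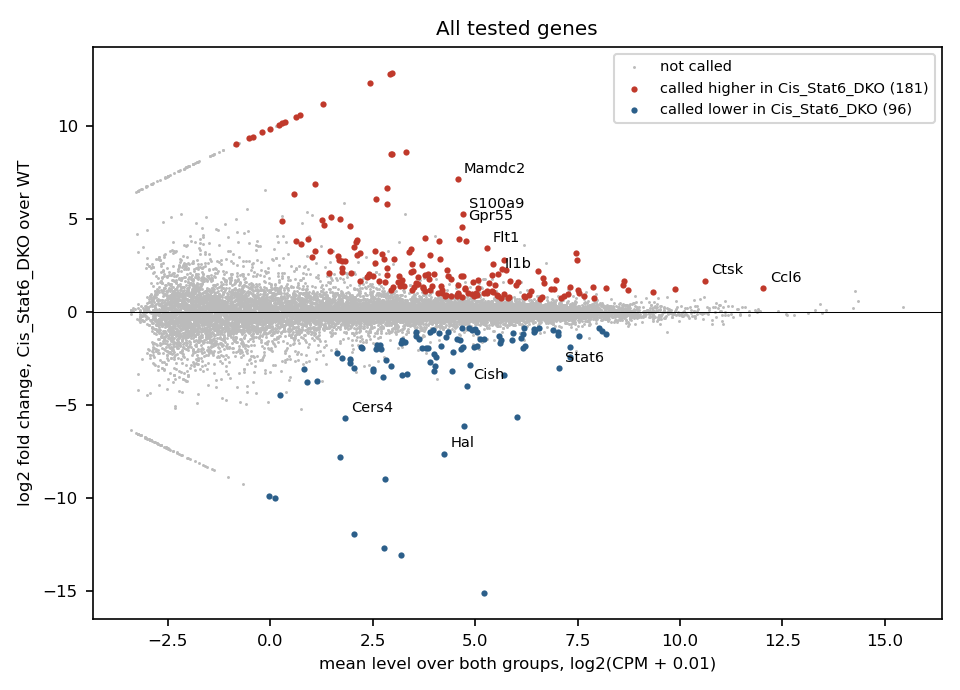
Log2 fold change of each of the 16182 tested genes (vertical axis, Cis_Stat6_DKO over WT) against its mean level over both genotypes (horizontal axis, log2 of CPM + 0.01). Red points are the 181 genes called higher, blue points the 96 called lower and grey points genes not called. The straight rays at large fold changes are genes with 0 counts in 1 genotype.

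The named genes with the largest rise, which leave out predicted genes and pseudogenes, included several that WT cells hardly expressed. Ccbe1, which encodes a secreted protein that aids the processing of the lymphatic growth factor VEGF-C, stood at 17.1 and 14.3 CPM in the Cis_Stat6_DKO libraries, against 0 and 0 CPM in the WT libraries. It was at least 659-fold higher, taking 3 counts over the group as the floor (edgeR adjusted p = 0.00096). Skint3, of a family of immunoglobulin-like membrane proteins, stood at 18 and 12.5 CPM in the Cis_Stat6_DKO libraries, against 0 and 0 CPM in the WT libraries and was at least 650.0-fold higher on the same floor (adjusted p = 0.00148, or 0.0515 with limma-voom). Both WT libraries had no count of either gene.

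Mamdc2, a secreted MAM-domain protein, stood at 47.5 and 47.4 CPM in the Cis_Stat6_DKO libraries, against 0.193 and 0.446 CPM in the WT libraries (log2 fold change 7.17 ± 0.32, adjusted p = 0.000643). Gpr55, a receptor for lysophosphatidylinositol, stood at 52.2 and 46.2 CPM in the Cis_Stat6_DKO libraries, against 1.83 and 2.19 CPM in the WT libraries (log2 fold change 4.61 ± 0.18, adjusted p = 0.00046). These genes differed far more between genotypes than between replicates. Spint1, a Kunitz-type inhibitor of the proteases that activate hepatocyte growth factor, stood at 31 and 20.6 CPM in the Cis_Stat6_DKO libraries, against 1.9 and 1.32 CPM in the WT libraries (log2 fold change 4.00 ± 0.30, adjusted p = 0.00276). Greb1l, a relative of the oestrogen-responsive gene Greb1, stood at 44.3 and 47.1 CPM in the Cis_Stat6_DKO libraries, against 2.39 and 3.6 CPM in the WT libraries (log2 fold change 3.92 ± 0.23, adjusted p = 0.00107).

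H2-M2, a non-classical MHC class I gene, stood at 8.82 and 19.5 CPM in the Cis_Stat6_DKO libraries, against 0 and 0.253 CPM in the WT libraries (log2 fold change 6.71 ± 0.94, adjusted p = 0.025). Its adjusted p was 0.051 with DESeq2, 0.283 with limma-voom and 0.0808 with robust empirical Bayes. Aloxe3, a lipoxygenase known from the skin barrier, stood at 9.63 and 18.5 CPM in the Cis_Stat6_DKO libraries, against 0.422 and 0.0893 CPM in the WT libraries (log2 fold change 5.81 ± 0.68, adjusted p = 0.0157), and at an adjusted p of 0.0972 with limma-voom. In both genes the Cis_Stat6_DKO replicates differed from each other, and both lay above both WT libraries, which the naming rule requires. S100a9, a subunit of the neutrophil protein calprotectin, stood at 28.2 and 73.6 CPM in the Cis_Stat6_DKO libraries, against 1.37 and 1.26 CPM in the WT libraries (log2 fold change 5.27 ± 0.50, adjusted p = 0.00662). The remaining genes of this group were lower in level. Car9, a carbonic anhydrase that hypoxia induces in many cells, stood at 6.29 and 6.31 CPM in the Cis_Stat6_DKO libraries, against 0.123 and 0.253 CPM in the WT libraries (log2 fold change 5.03 ± 0.47, adjusted p = 0.00641). Zfp280b, a zinc finger protein gene, stood at 5.34 and 5.4 CPM in the Cis_Stat6_DKO libraries, against 0.0879 and 0.208 CPM in the WT libraries (log2 fold change 5.14 ± 0.52, adjusted p = 0.00903). Scml4, of the polycomb family, stood at 8.12 and 6.64 CPM in the Cis_Stat6_DKO libraries, against 0.422 and 0.164 CPM in the WT libraries (log2 fold change 4.66 ± 0.51, adjusted p = 0.0122). In each of these 3 genes both Cis_Stat6_DKO libraries were above both WT libraries, which the naming rule requires.

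Among the genes that fell, Hal had the smallest p-value of all tested genes. Hal encodes histidine ammonia-lyase, the enzyme that opens the breakdown of histidine to urocanate, and it stood at 0.176 and 0.209 CPM in the Cis_Stat6_DKO libraries, against 37.1 and 38 CPM in the WT libraries (log2 fold change -7.61 ± 0.21, adjusted p = 0.000162). Cers4, a ceramide synthase, stood at 0.118 and 0.147 CPM in the Cis_Stat6_DKO libraries, against 6.59 and 7.25 CPM in the WT libraries (log2 fold change -5.70 ± 0.40, adjusted p = 0.00225). Both were close to silent in the double knockout and even between the WT replicates. Greb1 stood at 0 and 0 CPM in the Cis_Stat6_DKO libraries, against 16.1 and 20.1 CPM in the WT libraries and was at least 706-fold lower (adjusted p = 0.00096). Sema3e, a semaphorin that binds plexin D1, stood at 0 and 0 CPM in the Cis_Stat6_DKO libraries, against 3.99 and 12.4 CPM in the WT libraries and was at least 329-fold lower (adjusted p = 0.0172, or 0.266 with limma-voom). Clca1, a secreted protein that goblet cells make under interleukin 13, had 3 counts in Cis_Stat6_DKO and stood at 0.0441 and 0 CPM in the Cis_Stat6_DKO libraries, against 15.9 and 11.7 CPM in the WT libraries, a WT over Cis_Stat6_DKO ratio of 525 with a 95% counting interval of 179 to 2548 (adjusted p = 0.00177, or 0.0775 with limma-voom).

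Rpl29, a ribosomal protein gene, stood at 1.71 and 3.39 CPM in the Cis_Stat6_DKO libraries, against 75.8 and 178 CPM in the WT libraries (log2 fold change -5.66 ± 0.53, adjusted p = 0.00662), with an adjusted p of 0.0516 under robust empirical Bayes. The WT libraries differed from each other in this gene by more than the fitted error, yet both lay far above the double knockout. Plxnb2, a plexin receptor for class 4 semaphorins, stood at 2.43 and 1.17 CPM in the Cis_Stat6_DKO libraries, against 22.2 and 14.3 CPM in the WT libraries (log2 fold change -3.32 ± 0.40, adjusted p = 0.0171), with an adjusted p of 0.0501 without WT replicate 1. Qpct, the enzyme that forms N-terminal pyroglutamate, stood at 3.87 and 2.43 CPM in the Cis_Stat6_DKO libraries, against 24.9 and 32.9 CPM in the WT libraries (log2 fold change -3.19 ± 0.28, adjusted p = 0.00509). Ppp1r9a, the actin-binding neurabin, stood at 1.72 and 0.67 CPM in the Cis_Stat6_DKO libraries, against 9.99 and 10.4 CPM in the WT libraries (log2 fold change -3.07 ± 0.45, adjusted p = 0.0292). The adjusted p of Ppp1r9a was 0.0929 without WT replicate 1 and 0.0518 without WT replicate 2.

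1 lower call came from a gene whose reads are divided between 2 annotated entries. Nnt, the mitochondrial transhydrogenase gene, has 2 overlapping entries on the same strand in the deposited tables. The entry ENSMUSG00000116207 stood at 0 and 0 CPM in the Cis_Stat6_DKO libraries, against 22.3 and 5.1 CPM in the WT libraries and was called lower (adjusted p = 0.0243, but 0.421 with limma-voom and 0.136 with robust empirical Bayes). The entry ENSMUSG00000025453 stood at 52.6 and 48.9 CPM in Cis_Stat6_DKO, against 8.25 and 24.7 CPM in WT, and was not called (log2 fold change 1.62 ± 0.45, adjusted p = 0.182). Their sum was 52.6 and 48.9 CPM in Cis_Stat6_DKO, against 30.6 and 29.8 CPM in WT, a log2 ratio of 0.75, so the gene as a whole was not lower. In the fit of all 6 libraries the entry ENSMUSG00000116207 also stood at 0 and 0 CPM in Cis_KO. The cause of this pattern was not tested.

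**Figure D2:**
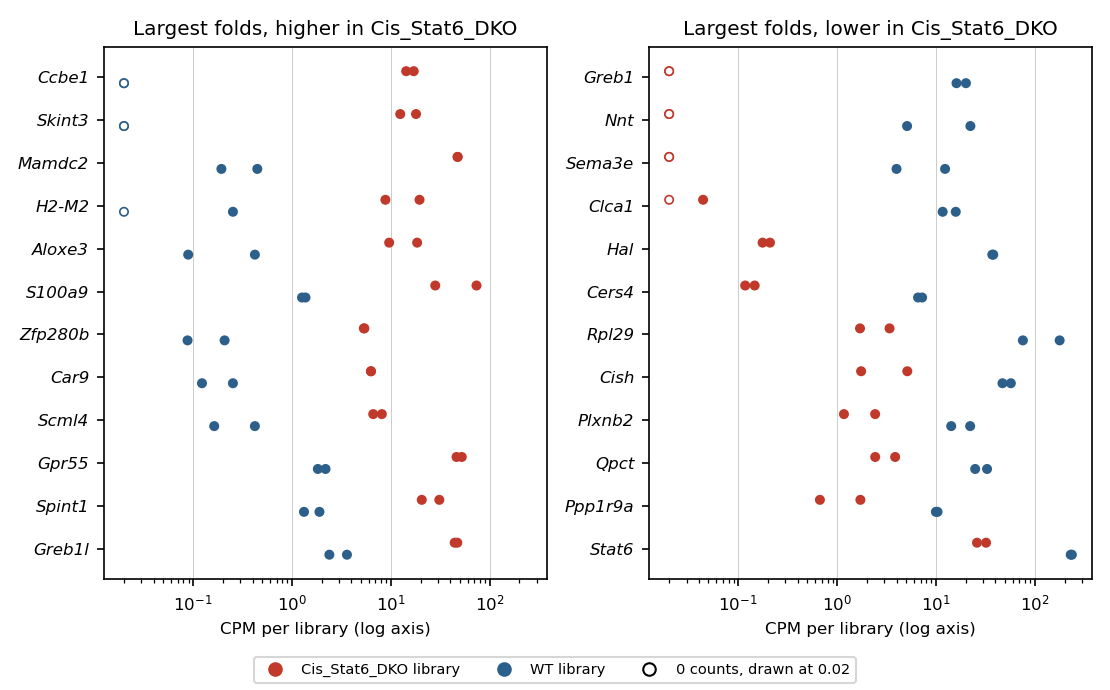
Level of the named genes with the largest fold changes in each library (horizontal axis, CPM on a log scale), with the genes higher in Cis_Stat6_DKO on the left and those lower on the right. Red points are the 2 Cis_Stat6_DKO libraries and blue points the 2 WT libraries, and open points mark 0 counts, drawn at 0.02. The naming rule took only genes in which both red points lie on the same side of both blue points.

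STAT6 binds a palindrome with a spacer of 4 bases, and the promoters of the named genes that hold it are shown so that the match can be seen beside the fold. Sequences are from RefSeq (GRCm38.p6, plus strand, 250 bases before to 30 bases after the start site), with capitals marking TTC and GAA with 4 bases of any kind between them, a form that reads the same on both strands. Sema3e (chr5:14025026-14025305) was the lower gene with a match, whereas Skint3 (chr4:112231995-112232274) and Spint1 (chr2:119237110-119237389) were higher in the double knockout. The promoters searched held none for the lower genes Nnt, Clca1, Rpl29 and Qpct. They held none for the higher genes Ccbe1, Mamdc2, Aloxe3, Scml4 and Greb1l either, so a match in these genes could not be looked for.
Sema3e: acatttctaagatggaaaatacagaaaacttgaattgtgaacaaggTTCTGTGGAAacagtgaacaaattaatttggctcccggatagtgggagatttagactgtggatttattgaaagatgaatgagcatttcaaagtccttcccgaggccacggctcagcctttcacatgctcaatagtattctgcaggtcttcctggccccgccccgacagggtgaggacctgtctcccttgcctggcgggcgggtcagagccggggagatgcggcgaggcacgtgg
Skint3: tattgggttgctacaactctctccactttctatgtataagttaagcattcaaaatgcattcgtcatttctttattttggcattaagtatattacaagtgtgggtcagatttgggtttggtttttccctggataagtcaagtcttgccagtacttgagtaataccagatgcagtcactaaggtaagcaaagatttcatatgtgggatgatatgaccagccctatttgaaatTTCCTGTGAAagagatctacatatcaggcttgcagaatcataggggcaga
Spint1: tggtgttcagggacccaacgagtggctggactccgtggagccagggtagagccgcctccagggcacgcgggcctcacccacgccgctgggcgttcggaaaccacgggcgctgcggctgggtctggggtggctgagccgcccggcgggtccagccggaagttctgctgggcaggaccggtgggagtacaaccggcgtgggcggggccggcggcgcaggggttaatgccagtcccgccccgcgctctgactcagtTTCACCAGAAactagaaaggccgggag
The match began 204 bases before the start site in Sema3e, 20 bases before it in Skint3 and 3 bases after it in Spint1. Over whole windows of 250 bases before to 50 bases after the start, the STAT6 form was in the promoter of 4 of 61 genes called lower that had a RefSeq promoter (6.56%) and 7 of 138 called higher (5.07%), beside 725 of 10860 tested genes (6.68%). The STAT5 form was in 8 of the genes called lower (13.1%) and 11 of those called higher (7.97%), beside 917 tested genes (8.44%). Called genes of either direction held the STAT6 form about as often as all genes, and no test was run on these shares. A window can hold both forms, as that of Sema3e does.

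The difference between the cells that lack CIS alone and the double knockout was called in some of these genes and not in others. The values that follow are CPM from 1 fit of all 6 libraries, so they differ slightly from those above, and the comparisons share libraries. Cis_KO replicate 2 stood apart, with 3.29% of its counts on haemoglobin genes and 15855 genes with a count. Hal stood at 0.173 and 0.206 in Cis_Stat6_DKO, 15.2 and 34.9 in Cis_KO and 36.5 and 37.3 in WT, so only the double knockout was close to 0. Cers4 stood at 0.116 and 0.144 in Cis_Stat6_DKO, 19.8 and 17.6 in Cis_KO and 6.47 and 7.12 in WT. Plxnb2 stood at 2.38 and 1.15 in Cis_Stat6_DKO, 108 and 142 in Cis_KO and 21.8 and 14 in WT. In Cers4 and Plxnb2 the Cis_KO libraries lay above WT and the double knockout below it. The difference of Cis_KO from WT was not called in either gene (edgeR adjusted p = 0.168 for Cers4 and 0.0652 for Plxnb2). Skint3 had 17.7 and 12.2 in Cis_Stat6_DKO and 0 in every Cis_KO and WT library, and Greb1l had 43.5 and 46.2 in Cis_Stat6_DKO, 5.44 and 4.93 in Cis_KO and 2.35 and 3.54 in WT. For these 5 genes and Stat6 the difference of Cis_Stat6_DKO from Cis_KO was itself called in that fit (edgeR adjusted p of 0.00374 to 0.0308).

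Other genes lay on the same side of WT in both mutant genotypes. Rpl29 had 1.68 and 3.33 in Cis_Stat6_DKO, 2.72 and 1.64 in Cis_KO and 74.3 and 175 in WT, and Cish had 1.72 and 5.04 in Cis_Stat6_DKO, 4.34 and 3.52 in Cis_KO and 46.2 and 56.2 in WT. Gpr55 had 51.3 and 45.4 in Cis_Stat6_DKO, 35 and 18.3 in Cis_KO and 1.79 and 2.15 in WT. Spint1 had 30.4 and 20.2 in Cis_Stat6_DKO, 34.8 and 56.2 in Cis_KO and 1.86 and 1.3 in WT. Clca1 had 0.0433 and 0 in Cis_Stat6_DKO, 0.266 and 0.365 in Cis_KO and 15.6 and 11.5 in WT. Ccbe1 had 16.8 and 14 in Cis_Stat6_DKO, 11.1 and 5.66 in Cis_KO and 0 and 0 in WT, and Mamdc2 had 46.7 and 46.5 in Cis_Stat6_DKO, 22.1 and 12.8 in Cis_KO and 0.19 and 0.438 in WT. In these 7 genes the libraries of both mutant genotypes were on the same side of both WT libraries. The difference between the mutants was not called, which does not show that they were equal. Its log2 fold change, Cis_Stat6_DKO over Cis_KO, ranged from -3.57 ± 0.84 in Clca1 to 1.42 ± 0.38 in Mamdc2. The difference of Cis_KO from WT passed for Rpl29, Gpr55, Spint1, Ccbe1 and Mamdc2 (edgeR adjusted p of 0.0158 to 0.0317) and did not pass for Cish (0.0624) and Clca1 (0.0559). Greb1 and Sema3e were uneven in Cis_KO, at 12.7 and 0 and at 6.95 and 0, and S100a9 was too, at 0.438 and 133.

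With edgeR, genes of acute inflammation were called higher and not lower in the lists of classical activation, interleukin 1 and both chemokine classes. The lists share members, so their counts of calls are not separate results. Il1b is in both the classical activation and the interleukin 1 lists, and Ptgs2 is also in the eicosanoid list. Il1r2 and Mmp9 are also in the neutrophil list, and Pf4 is also in that of erythroid and platelet genes. The classical activation state is the one that lipopolysaccharide and interferon gamma induce. Of its 26 tested genes 5 were called higher, beside 1.12% of all tested genes, and none lower. DESeq2 called 7 of them higher and 2 lower, and 15 had a log2 fold change above 0 and 11 below. Il1b, the gene of the cytokine interleukin 1 beta, stood at 86.1 and 65.7 CPM in the Cis_Stat6_DKO libraries, against 15.7 and 20.8 CPM in the WT libraries (log2 fold change 2.06 ± 0.20, adjusted p = 0.0084). Ptgs2, the inducible cyclooxygenase COX-2, stood at 13 and 8.32 CPM in the Cis_Stat6_DKO libraries, against 0.703 and 1.46 CPM in the WT libraries (log2 fold change 3.29 ± 0.44, adjusted p = 0.022). Acod1, which makes the antimicrobial metabolite itaconate, stood at 57.9 and 74 CPM in the Cis_Stat6_DKO libraries, against 27.4 and 19.7 CPM in the WT libraries (log2 fold change 1.49 ± 0.21, adjusted p = 0.0245). Both Cis_Stat6_DKO libraries were above both WT libraries in each gene. Cd80, a ligand for T cell costimulation and the fifth member called, stood at 15.1 and 15.5 CPM in the Cis_Stat6_DKO libraries, against 6.72 and 6.7 CPM in the WT libraries (log2 fold change 1.19 ± 0.17, adjusted p = 0.0273). The median log2 fold change of the list was 0.36, and it was 0.08 without Cis_Stat6_DKO replicate 2, 0.60 without WT replicate 1 and 0.09 without WT replicate 2. The adjusted p was 0.0515 for Ptgs2 without WT replicate 1 and 0.0656 for Acod1 without WT replicate 2. Nos2 and Il6 were too low to test, and Tnf stood at 25.5 and 42.2 CPM in the Cis_Stat6_DKO libraries, against 26.7 and 19 CPM in the WT libraries (adjusted p = 0.422).

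In the interleukin 1 family and the inflammasome 2 of 23 tested genes were called higher, beside 1.12% of all tested genes, and none lower. The median was 0.31. Il1r2, the decoy receptor that binds interleukin 1 without signalling, stood at 7.18 and 9.11 CPM in the Cis_Stat6_DKO libraries, against 1.05 and 0.759 CPM in the WT libraries (log2 fold change 3.17 ± 0.34, adjusted p = 0.0113). Il1a, the sister cytokine, stood at 44.7 and 81.1 CPM in the Cis_Stat6_DKO libraries, against 29.7 and 26.8 CPM in the WT libraries and Il1rn, the receptor antagonist, at 285 and 386 CPM in the Cis_Stat6_DKO libraries, against 275 and 279 CPM in the WT libraries. Neither passed the test, at adjusted p of 0.123 for Il1a and 0.516 for Il1rn.

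Chemokine genes leaned the same way. Of 10 tested CXC chemokine genes 2 were called higher, beside 1.12% of all tested genes, and none lower. In 6 the libraries were without overlap higher, beside 23.8% of all tested genes, and the median was 0.94. Cxcl2, a neutrophil attractant, stood at 52.7 and 65.1 CPM in the Cis_Stat6_DKO libraries, against 26.5 and 26.7 CPM in the WT libraries (log2 fold change 1.15 ± 0.15, adjusted p = 0.0217). Pf4, platelet factor 4, stood at 5.81 and 6.95 CPM in the Cis_Stat6_DKO libraries, against 1.2 and 1.71 CPM in the WT libraries (log2 fold change 2.13 ± 0.34, adjusted p = 0.0377). The related attractants Cxcl3, at 38.8 and 77.8 CPM in the Cis_Stat6_DKO libraries, against 15.6 and 18.3 CPM in the WT libraries, and Cxcl1, at 4.44 and 7.29 CPM in the Cis_Stat6_DKO libraries, against 1.58 and 1.12 CPM in the WT libraries, missed the threshold at adjusted p of 0.0567 and 0.0647. Of 12 tested CC and other chemokine genes 1 was called higher, beside 1.12% of all tested genes, and none lower. In 8 the libraries were without overlap higher, beside 23.8% of all tested genes, and the median was 1.08. Ccl6, a chemokine that alveolar macrophages make in large amounts, stood at 5294 and 6701 CPM in the Cis_Stat6_DKO libraries, against 1924 and 2891 CPM in the WT libraries (log2 fold change 1.32 ± 0.23, adjusted p = 0.049). Ccl3 and Ccl4, attractants of monocytes and T cells, were high mainly in 1 library. Ccl3 stood at 48.6 and 197 CPM in the Cis_Stat6_DKO libraries, against 25.3 and 19 CPM in the WT libraries (adjusted p = 0.129), and Ccl4 at 8.1 and 31.1 CPM in the Cis_Stat6_DKO libraries, against 3.52 and 2.63 CPM in the WT libraries (adjusted p = 0.109). Without WT replicate 1 the median of the CC list was 2.22, and Cxcl2, Pf4 and Ccl6 had adjusted p of 0.143, 0.176 and 0.179.

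Regulators around these genes held 1 call. None of 18 tested NF-kappaB feedback genes was called, with 4 at an unadjusted p under 0.05, none by DESeq2 and a median of -0.02. Nfkbia, the inhibitor that NF-kappaB itself induces, stood at 90.2 and 122 CPM in the Cis_Stat6_DKO libraries, against 73.3 and 77 CPM in the WT libraries (adjusted p = 0.255). Of 22 tested AP-1 and early response genes 1 was called, beside 1.71% of all tested genes. Ier3, an immediate early gene, stood at 16.9 and 19 CPM in the Cis_Stat6_DKO libraries, against 5.92 and 6.71 CPM in the WT libraries (log2 fold change 1.5 ± 0.18, adjusted p = 0.0171), and at an adjusted p of 0.112 without WT replicate 1. None of 32 tested interferon-stimulated genes was called, with 6 at an unadjusted p under 0.05 and 1 higher and 1 lower by DESeq2.

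The matrix, metalloprotease and pattern recognition lists each had 1 call, beside 1.12% of all tested genes called higher. Of the 10 tested matricellular and matrix genes 5 had a log2 fold change above 0 and 5 below, with a median of -0.13. Thbs1, the matricellular protein thrombospondin 1, stood at 36.2 and 17.2 CPM in the Cis_Stat6_DKO libraries, against 3.97 and 2.4 CPM in the WT libraries (log2 fold change 3.07 ± 0.42, adjusted p = 0.0231) and was the 1 call among 10 tested matricellular and matrix genes. Mmp9, the gelatinase that neutrophils also store, stood at 5.9 and 9.95 CPM in the Cis_Stat6_DKO libraries, against 0.668 and 0.491 CPM in the WT libraries (log2 fold change 3.77 ± 0.41, adjusted p = 0.0118). It was the 1 call among 19 tested metalloprotease and urokinase genes, beside 1.12% of all tested genes called higher. Of these 19 genes 10 were without overlap higher, beside 23.8% of all tested genes, and their median was 0.89. Without Cis_Stat6_DKO replicate 2 that median was 0.44. Clec5a, a C-type lectin receptor of myeloid cells, stood at 146 and 242 CPM in the Cis_Stat6_DKO libraries, against 52.1 and 63.1 CPM in the WT libraries (log2 fold change 1.75 ± 0.25, adjusted p = 0.0258), the 1 call among 19 tested C-type lectin and scavenger receptors, and at an adjusted p of 0.133 without WT replicate 1. Msr1, the class A scavenger receptor, stood at 137 and 109 CPM in the Cis_Stat6_DKO libraries, against 71.6 and 61.9 CPM in the WT libraries and Clec7a, the beta-glucan receptor dectin 1, at 1827 and 1738 CPM in the Cis_Stat6_DKO libraries, against 1002 and 1145 CPM in the WT libraries. Neither reached the threshold, at adjusted p of 0.0567 for Msr1 and 0.0541 for Clec7a.

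**Figure D3:**
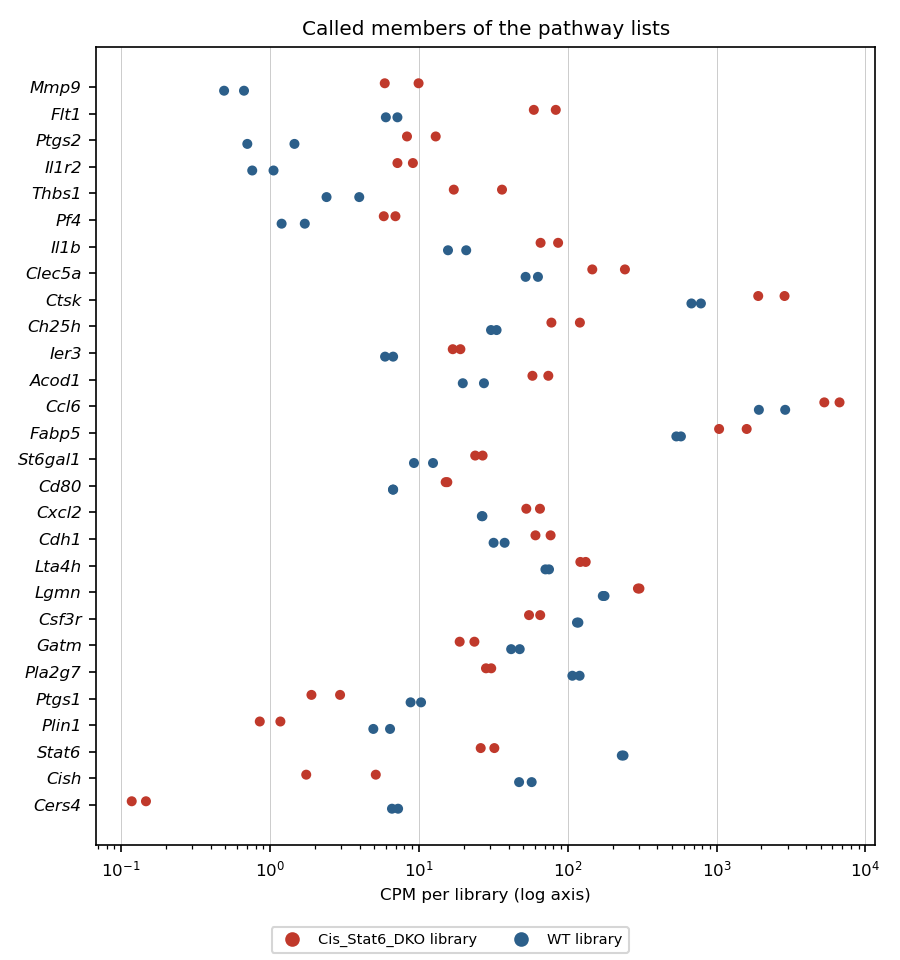
Level in each library (horizontal axis, CPM on a log scale) of the 28 called members of the pathway lists, ordered from the largest rise at the top to the largest fall at the bottom. Red points are the Cis_Stat6_DKO libraries and blue points the WT libraries. Ptgs2, Thbs1 and Mmp9 were low in WT, while Ccl6 and Ctsk were high in both genotypes.

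The genes that interleukin 4 induces through STAT6 did not fall together. Of 38 listed genes 33 were tested, of which 3 were called higher and 2 lower, beside 1.12% and 0.593% of all tested genes, and the median was 0.31. 1 of the 2 lower calls was Cish, a targeted gene, whose fall therefore does not bear on the list. The other was Gatm, the first enzyme of creatine synthesis. Gatm stood at 23.6 and 18.8 CPM in the Cis_Stat6_DKO libraries, against 41.7 and 47.6 CPM in the WT libraries (log2 fold change -1.07 ± 0.16, adjusted p = 0.0338). The higher calls were Flt1, Ch25h and Cdh1. Flt1, a receptor for VEGF, stood at 83.1 and 59.2 CPM in the Cis_Stat6_DKO libraries, against 7.17 and 6 CPM in the WT libraries (log2 fold change 3.43 ± 0.22, adjusted p = 0.00148). Ch25h, which makes the sterol 25-hydroxycholesterol, stood at 77.7 and 121 CPM in the Cis_Stat6_DKO libraries, against 30.5 and 33.3 CPM in the WT libraries (log2 fold change 1.64 ± 0.22, adjusted p = 0.0225). Cdh1, the adhesion molecule E-cadherin, stood at 76.7 and 60.7 CPM in the Cis_Stat6_DKO libraries, against 31.8 and 37.7 CPM in the WT libraries (log2 fold change 0.99 ± 0.17, adjusted p = 0.0482). Without WT replicate 1 the adjusted p was 0.12 for Gatm, 0.114 for Ch25h and 0.316 for Cdh1.

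The classical markers of that state were spread over both directions. Retnla, the gene of RELM alpha, stood at 0.176 and 0.0838 CPM in the Cis_Stat6_DKO libraries, against 1.56 and 0.699 CPM in the WT libraries, near the detection limit in all 4 libraries (adjusted p = 0.185). Chil3, the chitinase-like protein Ym1 that alveolar macrophages make without stimulation, stood at 22672 and 31710.2 CPM in the Cis_Stat6_DKO libraries, against 8944 and 15285 CPM in the WT libraries (adjusted p = 0.133). Arg1, arginase 1, stood at 2.71 and 0.209 CPM in the Cis_Stat6_DKO libraries, against 0.264 and 0.699 CPM in the WT libraries, and Mrc1, the mannose receptor, at 1494 and 1167 CPM in the Cis_Stat6_DKO libraries, against 1138 and 1384 CPM in the WT libraries. None of these 4 genes passed the test, and Chil3 had the double knockout libraries above both WT libraries. Il4ra, the receptor chain that feeds STAT6, stood at 194 and 135 CPM in the Cis_Stat6_DKO libraries, against 140.2 and 168 CPM in the WT libraries (adjusted p = 0.899).

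The receptors and kinases of cytokine signalling held few calls. Of 34 tested genes 2 were called lower, beside 0.593% of all tested genes, and none higher. The lower calls were Stat6, itself a targeted gene, and Csf3r. Of the 34 genes, 16 were without overlap lower, beside 23.7% of all tested genes. The median was -0.14, or -0.23 without Cis_Stat6_DKO replicate 1 and -0.08 without Cis_Stat6_DKO replicate 2. Csf3r, the receptor for the granulocyte factor G-CSF, stood at 65.3 and 54.9 CPM in the Cis_Stat6_DKO libraries, against 118 and 115 CPM in the WT libraries (log2 fold change -0.96 ± 0.13, adjusted p = 0.025), and at an adjusted p of 0.17 without WT replicate 1. Csf2rb, the signalling chain of the GM-CSF receptor, stood at 573 and 527 CPM in the Cis_Stat6_DKO libraries, against 511 and 578 CPM in the WT libraries, a log2 fold change of 0.01 ± 0.13. Stat5a and Stat5b, the factors that GM-CSF activates, had log2 fold changes of -0.19 ± 0.14 and -0.30 ± 0.19 and were not called. Of 23 tested genes that STAT5 or GM-CSF induces, the targeted gene Cish was the 1 call, beside 1.71% of all tested genes. Among all 8 SOCS family genes the targeted Cish was again the 1 call, beside the same share. Socs3, the inhibitor of gp130 receptors, stood at 31.1 and 34.6 CPM in the Cis_Stat6_DKO libraries, against 20.1 and 19.7 CPM in the WT libraries (log2 fold change 0.72 ± 0.14, adjusted p = 0.0665).

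Enzymes that make or destroy lipid mediators moved in both directions. Of 17 tested eicosanoid enzymes 2 were called higher and 2 lower, beside 1.12% and 0.593% of all tested genes. Pla2g7, which degrades platelet-activating factor, stood at 30.6 and 28.2 CPM in the Cis_Stat6_DKO libraries, against 120.2 and 107 CPM in the WT libraries (log2 fold change -1.95 ± 0.13, adjusted p = 0.00202). Ptgs1, the constitutive cyclooxygenase COX-1, stood at 1.9 and 2.95 CPM in the Cis_Stat6_DKO libraries, against 10.3 and 8.79 CPM in the WT libraries (log2 fold change -1.98 ± 0.30, adjusted p = 0.0338), and Lta4h, which makes leukotriene B4, at 132 and 122 CPM in the Cis_Stat6_DKO libraries, against 70.8 and 74.8 CPM in the WT libraries (log2 fold change 0.80 ± 0.12, adjusted p = 0.0318). The cyclooxygenases moved in opposite directions, Ptgs2 up and Ptgs1 down. Without WT replicate 1 the adjusted p was 0.176 for Ptgs1 and 0.296 for Lta4h.

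In lipid handling 1 of 30 tested genes was called higher and 1 lower, beside 1.12% and 0.593% of all tested genes. Fabp5, a fatty acid binding protein, stood at 1039.7 and 1593 CPM in the Cis_Stat6_DKO libraries, against 576 and 537 CPM in the WT libraries (log2 fold change 1.24 ± 0.21, adjusted p = 0.0475). Plin1, a lipid droplet coat protein, stood at 0.853 and 1.17 CPM in the Cis_Stat6_DKO libraries, against 4.94 and 6.4 CPM in the WT libraries (log2 fold change -2.49 ± 0.37, adjusted p = 0.0292). Of 25 tested sphingolipid and glycan enzymes Cers4 was called lower and St6gal1 higher, beside 0.593% and 1.12% of all tested genes. St6gal1, which adds sialic acid to glycoproteins, stood at 23.9 and 26.8 CPM in the Cis_Stat6_DKO libraries, against 9.27 and 12.4 CPM in the WT libraries (log2 fold change 1.22 ± 0.19, adjusted p = 0.036). Without WT replicate 1 the adjusted p was 0.185 for Fabp5, 0.0849 for Plin1 and 0.208 for St6gal1.

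Cholesterol synthesis showed small shifts in 1 direction and no call. All 24 tested genes had a log2 fold change above 0, from 0.06 to 0.79, and 17 were without overlap higher, beside 23.8% of all tested genes. With library sizes left unscaled, 23 of the 24 were above 0. The summed level was 1938 and 2305 CPM in Cis_Stat6_DKO, against 1774 and 1527 CPM in WT, and 11 genes had an unadjusted p under 0.05. DESeq2 called 4 higher and limma-voom 1. Idi1, the isomerase of isopentenyl diphosphate, stood at 107 and 134 CPM in the Cis_Stat6_DKO libraries, against 73.4 and 66.3 CPM in the WT libraries (log2 fold change 0.79 ± 0.15, adjusted p = 0.0702).

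Of 26 tested lysosome and cathepsin genes 2 were called higher, beside 1.12% of all tested genes, and none lower. Ctsk, the collagen-degrading cathepsin K, stood at 1905 and 2862 CPM in the Cis_Stat6_DKO libraries, against 785 and 678 CPM in the WT libraries (log2 fold change 1.70 ± 0.21, adjusted p = 0.0191). Lgmn, the asparaginyl protease legumain, stood at 303 and 296 CPM in the Cis_Stat6_DKO libraries, against 172 and 177 CPM in the WT libraries (log2 fold change 0.78 ± 0.11, adjusted p = 0.0263). Without WT replicate 1 the adjusted p was 0.0649 for Ctsk and 0.26 for Lgmn. The genes of 18 of the 39 lists held no call, and their medians lay between -0.20 and 0.44. None of 36 oxidative phosphorylation subunits was called, with 2 at an unadjusted p under 0.05, 1 lower by DESeq2 and a median of 0.00. None of 22 glycolysis and hypoxia genes was called, with 6 at an unadjusted p under 0.05 and 3 higher by DESeq2. None of 33 cell cycle genes was called, with 9 at an unadjusted p under 0.05 and 2 higher by DESeq2. Mki67, the proliferation marker, stood at 95.7 and 106 CPM in the Cis_Stat6_DKO libraries, against 57.9 and 73.7 CPM in the WT libraries (adjusted p = 0.141). None of 11 MHC class II genes was called, with 2 at an unadjusted p under 0.05 and none by DESeq2. None of 26 NRF2 and antioxidant genes was called, with 2 at an unadjusted p under 0.05 and 1 lower by DESeq2.

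**Figure D4:**
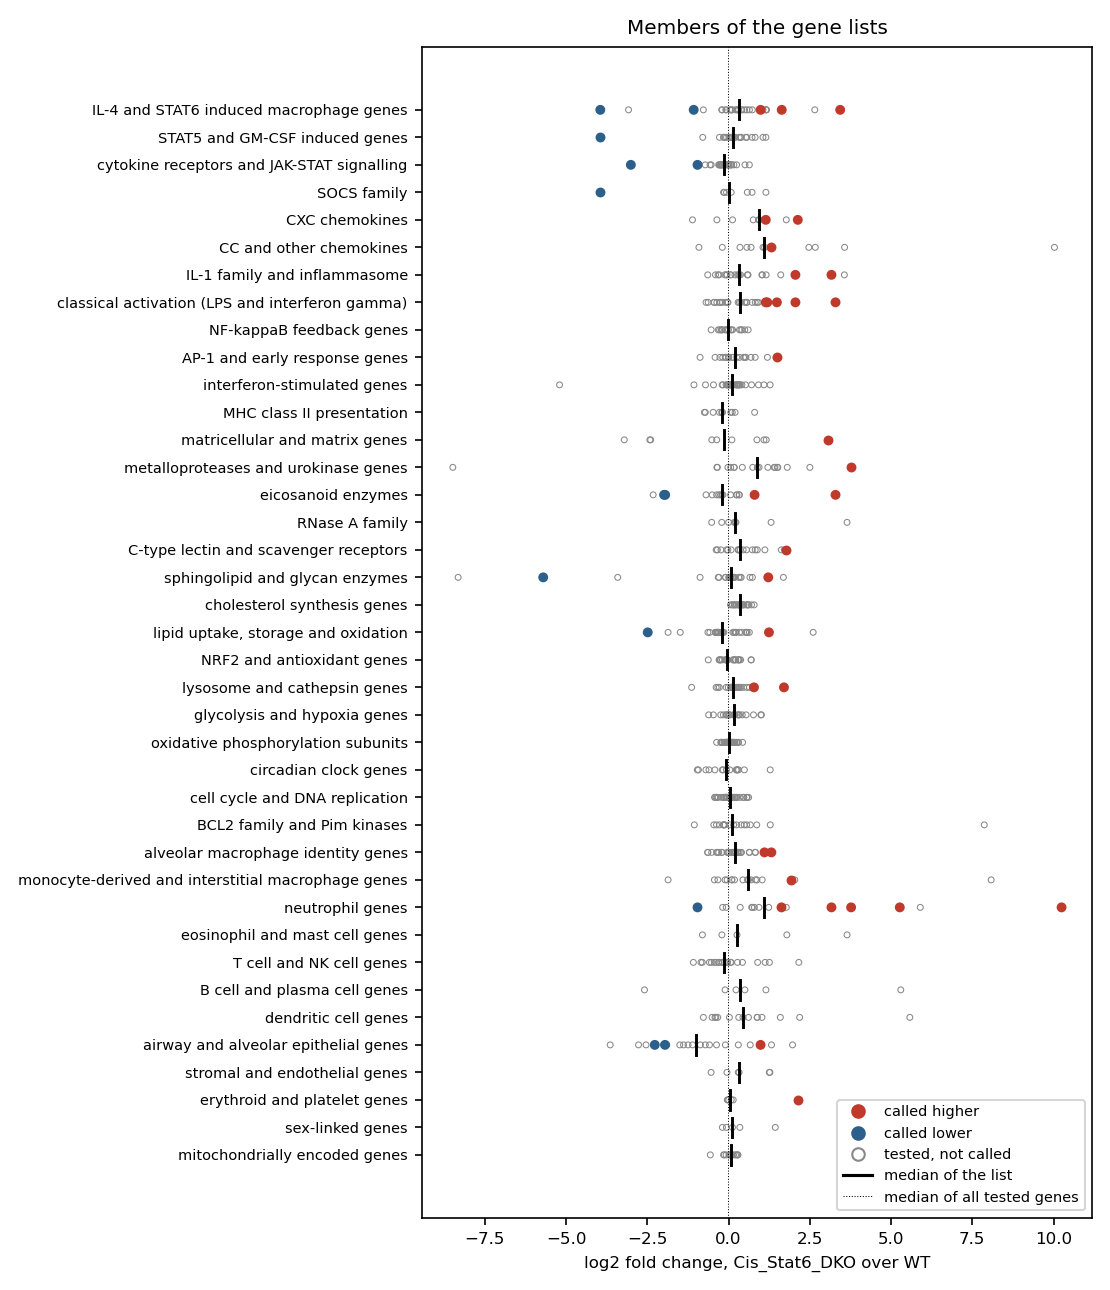
Log2 fold change (horizontal axis, Cis_Stat6_DKO over WT) of every tested member of the 39 gene lists (rows). Red and blue filled points are members called higher and lower, open points members not called, black bars list medians and the dotted line the median of all tested genes. Calls in the inflammatory and neutrophil rows lie to the right of 0, with Csf3r as the exception, and those in the eicosanoid row lie on both sides.

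Markers of other cells moved beside these groups. Of 16 tested neutrophil genes (19 listed) 5 were called higher and 1 lower, beside 1.12% and 0.593% of all tested genes, with a median of 1.09 (1.92 without WT replicate 1) and a summed level of 483 and 605 CPM in Cis_Stat6_DKO, against 402 and 355 CPM in WT. The calls included S100a9, Il1r2 and Mmp9, described above, and Stfa2l1, a stefin gene, at 1.47 and 3.6 CPM in the Cis_Stat6_DKO libraries, against 0 and 0 CPM in the WT libraries (adjusted p = 0.0243). Cxcr2, the receptor for CXC attractants, stood at 10.6 and 10.3 CPM in the Cis_Stat6_DKO libraries, against 3.52 and 3.24 CPM in the WT libraries (log2 fold change 1.63 ± 0.22, adjusted p = 0.0227), and at an adjusted p of 0.12 without WT replicate 1. When the Cis_KO libraries shared the fit, the adjusted p was 0.866 for S100a9 and 0.799 for Il1r2. The 1 neutrophil gene called lower was Csf3r. S100a8, the partner of S100a9, stood at 32.8 and 83.2 CPM in the Cis_Stat6_DKO libraries, against 16.9 and 16.9 CPM in the WT libraries (adjusted p = 0.109). Ly6g, the surface marker of mouse neutrophils, stood at 0.118 and 0.733 CPM in the Cis_Stat6_DKO libraries, against 0.299 and 0.0595 CPM in the WT libraries, and the granule genes Elane and Prtn3 had no count in either WT library and at most 0.23 CPM in a Cis_Stat6_DKO library. The part that a change in neutrophil number has in the inflammatory calls was not tested.

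Of 20 tested genes of monocyte-derived and interstitial macrophages 1 was called higher, beside 1.12% of all tested genes. Itgam, the integrin CD11b, which resident alveolar macrophages carry at a low level, stood at 29.7 and 34.1 CPM in the Cis_Stat6_DKO libraries, against 8.11 and 8.6 CPM in the WT libraries (log2 fold change 1.93 ± 0.15, adjusted p = 0.00365). Of 31 tested genes of alveolar macrophage identity 2 were called higher, Ccl6 and Car4, beside 1.12% of all tested genes, and none lower. Car4, carbonic anhydrase 4, stood at 888 and 887 CPM in the Cis_Stat6_DKO libraries, against 376 and 449.8 CPM in the WT libraries (log2 fold change 1.10 ± 0.14, adjusted p = 0.0176), and at an adjusted p of 0.141 without WT replicate 1. Pparg, the nuclear receptor that alveolar macrophages require, stood at 208 and 188 CPM in the Cis_Stat6_DKO libraries, against 161 and 182 CPM in the WT libraries (adjusted p = 0.533), and Itgax, the integrin CD11c, at 1703 and 1831 CPM in the Cis_Stat6_DKO libraries, against 1348 and 1538 CPM in the WT libraries (adjusted p = 0.383).

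Epithelial genes were mostly lower. Of 20 tested genes of airway and alveolar epithelium 2 were called lower and 1, Cdh1, higher, beside 0.593% and 1.12% of all tested genes. In 13 the libraries were without overlap lower, beside 23.7% of all tested genes, and the median was -0.99. That median was -1.56 without Cis_Stat6_DKO replicate 1 and -0.42 without Cis_Stat6_DKO replicate 2. Scgb1a1, the secretoglobin of club cells, stood at 13.2 and 7.33 CPM in the Cis_Stat6_DKO libraries, against 30.7 and 49.3 CPM in the WT libraries (log2 fold change -1.96 ± 0.34, adjusted p = 0.049). Epcam, an epithelial adhesion molecule, stood at 7.59 and 3.2 CPM in the Cis_Stat6_DKO libraries, against 29.5 and 23 CPM in the WT libraries (log2 fold change -2.27 ± 0.39, adjusted p = 0.049). The adjusted p was 0.0954 for Scgb1a1 without WT replicate 2 and 0.175 for Epcam without WT replicate 1, and with robust empirical Bayes it was 0.0548 for Scgb1a1 and 0.0551 for Epcam. The summed level was 584 and 417 CPM in Cis_Stat6_DKO, against 657 and 657 CPM in WT. Called genes outside the list that club cells are known to express, chosen after their values were seen, also fell. The club cell cytochrome Cyp2f2 stood at 39 and 27.8 CPM in the Cis_Stat6_DKO libraries, against 108 and 124 CPM in the WT libraries (log2 fold change -1.79 ± 0.19, adjusted p = 0.011) and Cyp2a5, another airway cytochrome, at 5.41 and 5.53 CPM in the Cis_Stat6_DKO libraries, against 16.4 and 24.9 CPM in the WT libraries (log2 fold change -1.92 ± 0.24, adjusted p = 0.0188). The part of epithelial RNA in the fall of Clca1, a goblet cell gene, was not tested.

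**Figure D5:**
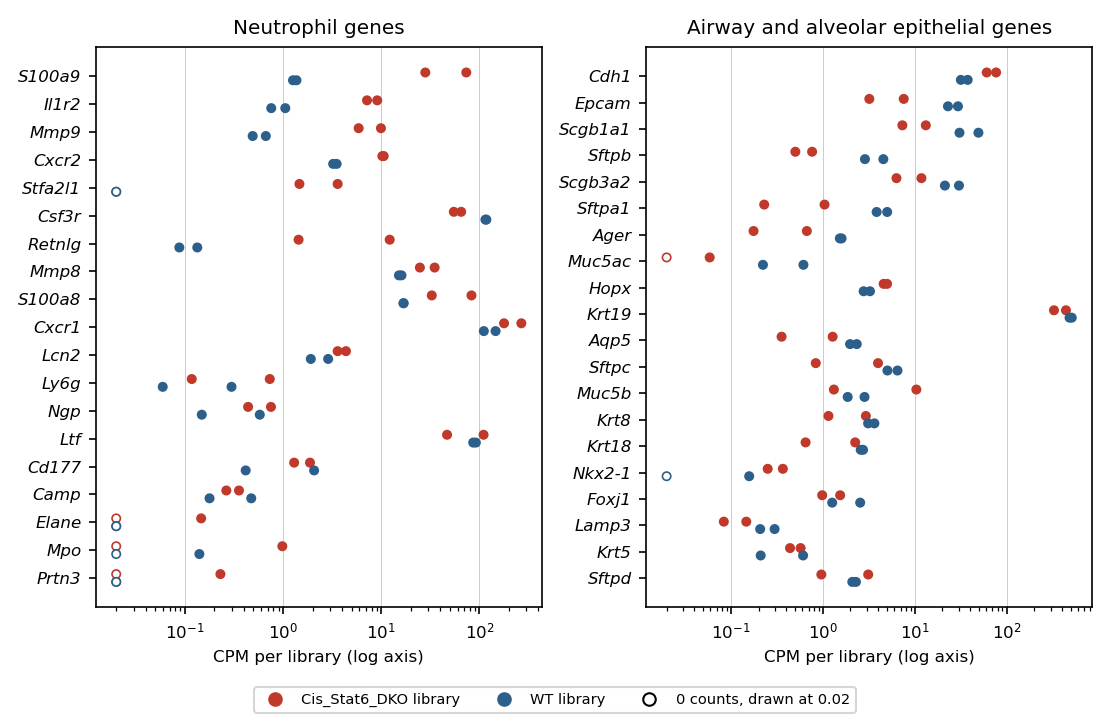
Level in each library (horizontal axis, CPM on a log scale) of the neutrophil genes on the left and the airway and alveolar epithelial genes on the right. Red points are the Cis_Stat6_DKO libraries, blue points the WT libraries and open points 0 counts, drawn at 0.02. S100a9, Mmp9 and Il1r2 stand above WT in both Cis_Stat6_DKO libraries, while Elane and Prtn3 are at or near 0 throughout.

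Lymphocyte genes were unevenly spread over the replicates of both genotypes. Of 23 tested T cell and NK cell genes none was called, none had an unadjusted p under 0.05 and none was called by DESeq2, and their summed level was 15.9 and 62.2 CPM in Cis_Stat6_DKO, against 66.7 and 19.9 CPM in WT. The 6 tested B cell and plasma cell genes had 1 unadjusted p under 0.05 and no call by edgeR or DESeq2, and summed to 1.06 and 60.2 CPM in Cis_Stat6_DKO, against 7.44 and 3.73 CPM in WT. Igkc, the immunoglobulin kappa chain, stood at 0.147 and 38 CPM in the Cis_Stat6_DKO libraries, against 0.58 and 0.387 CPM in the WT libraries. Cis_Stat6_DKO replicate 2, the library with these immunoglobulin reads, was also the one with the higher Ccl3, Ccl4 and S100a9, and the part of lymphocytes in those values was not tested. Dendritic cell genes held no call among 15 tested, with 4 at an unadjusted p under 0.05 and 1 higher by DESeq2. Of the eosinophil and mast cell genes 5 were tested and none called, with 1 at an unadjusted p under 0.05 and 1 higher by DESeq2, and Epx, the eosinophil peroxidase, had no count in any of the 4 libraries. Ear6, a ribonuclease gene of that list, stood at 50.5 and 222 CPM in the Cis_Stat6_DKO libraries, against 9.83 and 11.9 CPM in the WT libraries (log2 fold change 3.65 ± 0.65, adjusted p = 0.0567).

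Some calls sat in gene and pseudogene pairs whose reads are hard to separate. By name, 285 such pairs were tested and the pseudogene was called in 9 of them, beside 1.71% of all tested genes. Its parent gene was called as well in 6 pairs, in the opposite direction in 4. Rpl30, a ribosomal protein gene, stood at 278 and 359.9 CPM in the Cis_Stat6_DKO libraries, against 35.3 and 33.5 CPM in the WT libraries (log2 fold change 3.21 ± 0.17, adjusted p = 0.00084), while its pseudogene Rpl30-ps9 was called lower at a log2 fold change of -2.87. Their summed level was 281 and 365 CPM in Cis_Stat6_DKO, against 61.9 and 63.8 CPM in WT, a log2 ratio of 2.36. Capza1, an actin capping protein gene, was called higher at 1.32 and Capza1-ps1 lower at -1.26 on the log2 scale. Their sum was 529.8 and 525 CPM in Cis_Stat6_DKO, against 418 and 439 CPM in WT, a log2 ratio of 0.30, well below that of the parent gene alone. These genes, named after their values were seen, are uncertain for that reason.

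The share of called genes was somewhat higher near Cish and lower near Stat6 than elsewhere, on few called genes. Within 20 Mb of Cish 8 of 366 tested genes were called (2.19%), within 20 Mb of Stat6 1 of 154 (0.649%). Outside both windows it was 266 of 15660 (1.7%). With windows of 5 Mb the counts were 4 of 162 near Cish (2.47%), 1 of 84 near Stat6 (1.19%) and 270 of 15934 outside both (1.69%). No test was run on these shares. The called genes near Cish, of which some are named here after their values were seen, included Rpl29 at 0.869 Mb and Alas1, the first enzyme of haem synthesis, at 1.06 Mb on the lower side of the locus, and 6430571L13Rik, the nearest called gene, at 0.0471 Mb and Stac, an adaptor protein gene, at 4.33 Mb on the other. 6430571L13Rik stood at 4.5 and 4.82 CPM in the Cis_Stat6_DKO libraries, against 0.246 and 0.0595 CPM in the WT libraries (log2 fold change 4.94 ± 0.67, adjusted p = 0.0231). Alas1 stood at 162 and 204 CPM in the Cis_Stat6_DKO libraries, against 339 and 388 CPM in the WT libraries (log2 fold change -0.99 ± 0.16, adjusted p = 0.0367), and Stac at 2.96 and 6.81 CPM in the Cis_Stat6_DKO libraries, against 0 and 0 CPM in the WT libraries (adjusted p = 0.0142). Ccr1, a receptor for CC chemokines, lay 16.7 Mb from Cish and stood at 49.7 and 55 CPM in the Cis_Stat6_DKO libraries, against 24.6 and 26.6 CPM in the WT libraries (log2 fold change 1.03 ± 0.13, adjusted p = 0.0216). The 1 called gene within 20 Mb of Stat6, Cd63, a tetraspanin of lysosomes, lay 1.25 Mb away and stood at 444 and 771 CPM in the Cis_Stat6_DKO libraries, against 209 and 174 CPM in the WT libraries (log2 fold change 1.67 ± 0.26, adjusted p = 0.0367).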

How the data were processed

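Read counts per gene of 4 BALF libraries (2 Cis_Stat6_DKO, 2 WT) were analysed. The authors deposited raw counts, which per the file headers are numbers of reads per gene and were not normalised, and FPKM values, which are the authors' counts scaled by gene length and library total and rounded to 0.01. Build mm10 is named in the submitters' processing notes. Aligner, counter and strandedness (not given in the sources used here) bear on overlapping genes, paralogs and pseudogenes, whose counts are uncertain.

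The test was edgeR 4.0.16 (R 4.3.3; filterByExpr, TMM scaling, glmQLFit and glmQLFTest, two-sided, 2 residual degrees of freedom), fitted on the 4 libraries alone with Benjamini-Hochberg adjustment over the 16182 genes kept of 40564. Standard errors are the size of the log2 fold change over the square root of F. The biological coefficient of variation was 30.9%, which for all but weakly expressed genes exceeds counting error at depths of 52151440 to 65937118. For a single gene an exact permutation test of 2 against 2 cannot go below p = 0.333. Folds against 0 counts are bounds on a floor of 3 counts over the group, and bounds and 95% intervals cover counting error only.

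The rule named Cish and Stat6, the 12 higher and 12 lower called genes of largest fold whose higher group averaged 5 CPM or more and whose libraries did not overlap, leaving out predicted genes, clones, Riken names and pseudogenes, and up to 4 called members of each list, or the 2 of smallest p where none was called. 1 gene that the rule names is not reported here. Genes named beside these, among them members that missed the threshold, were chosen after their values were seen. The members and the 39 gene lists were chosen with earlier results of these data known. No list median moved by over 0.005 when the 6 members with 0 counts in 1 genotype were placed at their bounds. Promoters came from RefSeq (GRCm38.p6). Alternatives were DESeq2 1.42.0, limma 3.58.1 (voom, and log2 FPKM), other scalings, filters and thresholds, a replicate block, all 6 libraries, and each library left out.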

Additional observations from a re-analysis of the deposited data

How the results depend on the processing

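In each of the 19 alternatives every one of the 277 calls that could be tested kept its direction. Their libraries did not overlap between genotypes, so this outcome was largely fixed in advance. The calls (higher, lower) numbered 959 (591, 368) with DESeq2, 884 (539, 345) with no filter, 22 (11, 11) with all 6 libraries in 1 fit and 4 (1, 3) with limma on log2(FPKM + 1) and no minimum. They ranged from 122 to 1201 (78 to 577 higher, 44 to 624 lower) when 1 library was left out, where a lone library is assumed to vary like the other genotype. The remaining alternatives gave 225 to 391 calls. The Cish fold change missed the threshold with all 6 libraries (-3.93, adjusted p = 0.0767), with robust empirical Bayes (-3.95, adjusted p = 0.0517) and with log2(FPKM + 1) and no minimum (-2.55, adjusted p = 0.164), and that of Stat6 in the last of these (-2.87, adjusted p = 0.0796). The cause was not tested. With the replicate number as a block 266 genes were called, 220 of them among the 277. The labels do not say that a number pairs libraries, and the replicate differences of the genotypes correlated at -0.13 across genes. A crossed block, added after the data were seen, called 352. With 2 libraries per genotype the fit had 2 residual degrees of freedom.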

Other observations

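Several other groups of called genes, all chosen after their values were seen, are given as values. The enzymes that use histidine moved in opposite directions. Hdc, which turns histidine into histamine, stood at 19.3 and 19.8 CPM in the Cis_Stat6_DKO libraries, against 2.04 and 1.68 CPM in the WT libraries (log2 fold change 3.40 ± 0.21, adjusted p = 0.00133), while Hal, the enzyme of the alternative breakdown route, was the gene with the smallest p among those that fell. Genes of haem and iron handling were called in both directions. Alad, the second enzyme of haem synthesis after Alas1, stood at 11.8 and 9.99 CPM in the Cis_Stat6_DKO libraries, against 25.3 and 22 CPM in the WT libraries (log2 fold change -1.12 ± 0.17, adjusted p = 0.0318). Abcb10, a mitochondrial transporter known for its role in haem synthesis in red cell precursors, stood at 28.6 and 24.1 CPM in the Cis_Stat6_DKO libraries, against 8.84 and 10.8 CPM in the WT libraries (log2 fold change 1.42 ± 0.18, adjusted p = 0.0191). Steap3, a ferrireductase, stood at 18.9 and 21 CPM in the Cis_Stat6_DKO libraries, against 52.8 and 55.1 CPM in the WT libraries (log2 fold change -1.44 ± 0.13, adjusted p = 0.00641). Of lipid genes outside the lists, these were called lower: Acaa1b, a thiolase of peroxisomal beta-oxidation, at 87.8 and 46.5 CPM in the Cis_Stat6_DKO libraries, against 239 and 261 CPM in the WT libraries (log2 fold change -1.90 ± 0.28, adjusted p = 0.0318), and Gpd1, glycerol-3-phosphate dehydrogenase, at 25.8 and 25.8 CPM in the Cis_Stat6_DKO libraries, against 56.6 and 89.2 CPM in the WT libraries (log2 fold change -1.5 ± 0.22, adjusted p = 0.0299).

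MHC class I-like genes on chromosome 17 also moved in both directions. Among them, H2-T10 is annotated as a polymorphic pseudogene. H2-T10 stood at 3.97 and 4.61 CPM in the Cis_Stat6_DKO libraries, against 37.8 and 40.1 CPM in the WT libraries (log2 fold change -3.19 ± 0.16, adjusted p = 0.00084), and H2-T23, the gene of Qa-1, at 215 and 247 CPM in the Cis_Stat6_DKO libraries, against 93.3 and 83.9 CPM in the WT libraries (log2 fold change 1.38 ± 0.13, adjusted p = 0.00694). H2-M2, described above, lies at 37480851 to 37483552 (mm10) on that chromosome, and the olfactory receptor genes Olfr111 (37508030 to 37532449) and Olfr115 (37608940 to 37627109) beside it were called higher too. Olfr111 stood at 1.47 and 2.45 CPM in the Cis_Stat6_DKO libraries, against 0 and 0 CPM in the WT libraries (edgeR adjusted p = 0.0231) and Olfr115 at 2.21 and 2.62 CPM in the Cis_Stat6_DKO libraries, against 0 and 0 CPM in the WT libraries (adjusted p = 0.0157). These neighbours had no count in either WT library. Near-identical family members make the reads of such genes hard to assign.

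The chondroitin sulphate sulphotransferases Chst15 and Chst11 were called lower. Chst15 stood at 5.03 and 3.14 CPM in the Cis_Stat6_DKO libraries, against 25.5 and 26.1 CPM in the WT libraries (log2 fold change -2.65 ± 0.25, adjusted p = 0.00641), and Chst11 at 3.88 and 5.78 CPM in the Cis_Stat6_DKO libraries, against 16 and 13.2 CPM in the WT libraries (log2 fold change -1.60 ± 0.26, adjusted p = 0.0393). Both Cis_Stat6_DKO libraries were below both WT libraries in each gene.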
